A study of Mus musculus with 12 samples.

Results

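Dusp1, Dusp2, Dusp4, Dusp5, Dusp6, Dusp10, Spry1 and Spry2 encode dual-specificity phosphatases and Sprouty proteins that restrain MAP kinase signaling, and they were chosen by name as 8 of the 32285 genes listed in the scRNA-seq files. Their raw UMIs were read in CD8 T cells of NOD/ShiLtJ mice, a strain in which T cells destroy the insulin-producing β cells of the islets. Single-cell libraries were made from islet cells that did not bind the IGRP tetramer (islet IGRP-), islet cells that bound it (islet IGRP+) and spleen cells that bound it (spleen IGRP+), each in Round 1 and Round 2. The tetramer was Kd loaded with NRP-V7, a peptide that mimics the β-cell antigen IGRP, and all cells were sorted as CD45.1+, negative for CD4, B220 and CD11b, and CD8+. The mice were females aged 10 to 15 wk, and each round pooled the islets and the spleens of 10 mice, so no value belongs to one mouse. The paper also gives a different sequencing kit and read length for each round. Pool and sequencing setup therefore cannot be told apart in the spread between the 2 rounds. The study also describes the sequenced spleen cells as gated on CD44, a mark of cells that have met antigen, and no library of tetramer-negative spleen cells was analysed here. Islet cells were released with collagenase P and rested at 37 °C, whereas spleen cells were released mechanically and enriched for CD8 T cells with beads, so that tissue, isolation and any gate set on the spleen alone cannot be told apart in any islet-to-spleen value.

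When the T-cell receptor is engaged, Ras, Raf, MEK and ERK are activated in turn, with the JNK and p38 kinases activated alongside, and their targets include genes for inhibitors of the same kinases. Dual-specificity phosphatases remove phosphate from both the threonine and the tyrosine in the activation loop of a MAP kinase: DUSP1, DUSP2, DUSP4 and DUSP5 act in the nucleus, DUSP6 acts on ERK in the cytoplasm, and DUSP10 prefers JNK and p38. Sprouty proteins act further upstream, between the receptor and Ras or Raf. The transcripts are typically short-lived and induced within minutes to hours.

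In the GENCODE annotation of GRCm38, the build that mm10 denotes, all 8 were protein-coding genes. Dusp1 lay on the minus strand at chr17:26505590-26562128, Dusp2 on the plus strand at chr2:127336159-127338376, Dusp4 on the plus strand at chr8:34807297-34819894 and Dusp5 on the plus strand at chr19:53529109-53542431. Dusp6 lay on the plus strand at chr10:99263231-99267489, Dusp10 on the plus strand at chr1:184013302-184075636, Spry1 on the plus strand at chr3:37639947-37644598 and Spry2 on the minus strand at chr14:105891947-105896819. The span of Dusp1 overlapped 4 other annotated genes, among them Ergic1 on the opposite strand, and Dusp5, Dusp10 and Spry1 each overlapped 1 gene on the opposite strand. Whether counting used strand is not given in the sources used here, so reads of such partners may not be separable.

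Upstream sequence from RefSeq (GRCm38.p6) was matched by symbol for 7 of the 8 genes, all but Dusp4. The 250 bases before each RefSeq start were searched on both strands for the cyclic AMP response element (TGACGTCA) and its 7-letter core (TGACGTC, which also lies within the full element), for AP-1 (TGANTCA), for the CArG box bound by serum response factor, for EGR (GCGNGGGCG), for ETS (CCGGAAGT) and for TATAAA. Matches were found for Dusp1, Dusp2 and Dusp5, whose sequences are shown because they were the phosphatases that were most abundant in the spleen or the islets. Each sequence runs 5′ to 3′ on the strand of its gene, stops before the first base that GENCODE places in an exon of that gene, and has its matches in capitals.
Dusp1 (chr17:26508520-26508722, minus strand): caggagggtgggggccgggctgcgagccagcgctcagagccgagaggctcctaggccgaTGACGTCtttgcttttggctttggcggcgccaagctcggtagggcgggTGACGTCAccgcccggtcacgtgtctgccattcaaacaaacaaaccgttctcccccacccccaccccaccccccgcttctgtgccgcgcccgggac
Dusp2 (chr2:127335909-127336158, plus strand): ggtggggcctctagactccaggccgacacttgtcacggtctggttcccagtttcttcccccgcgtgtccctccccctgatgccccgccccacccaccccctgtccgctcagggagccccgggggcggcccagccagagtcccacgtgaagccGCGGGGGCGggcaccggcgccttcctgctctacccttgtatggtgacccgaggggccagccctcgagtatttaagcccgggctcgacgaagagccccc
Dusp5 (chr19:53528895-53529108, plus strand): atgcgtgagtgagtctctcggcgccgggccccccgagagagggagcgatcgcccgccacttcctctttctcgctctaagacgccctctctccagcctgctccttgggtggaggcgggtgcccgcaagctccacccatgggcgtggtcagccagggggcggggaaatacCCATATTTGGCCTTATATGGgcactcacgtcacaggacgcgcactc

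The Dusp1 sequence held 1 full cyclic AMP response element and 1 further core, Dusp5 held 2 CArG boxes next to each other, and Dusp2 held 1 EGR match. The full cyclic AMP response element was found in 1.55% of the 32851 sequences of the same length, its core in 2.78%, the CArG box in 1.47% and the EGR letters in 4.70%. AP-1 letters were found in 6.75% of the sequences, ETS letters in 2.88% and TATAAA in 12.4%, with 0 matches for each in the 7 genes. These are matches of letters only and were not read as binding.

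After the filters on mitochondrial UMIs and on genes per cell, 6429 and 8932 islet IGRP- cells, 1204 and 1598 islet IGRP+ cells, and 3524 and 2430 spleen IGRP+ cells were kept in Rounds 1 and 2. Library totals over these cells were 29153324 and 40469961 UMIs for islet IGRP-, 5880696 and 7980997 UMIs for islet IGRP+, and 9607921 and 6907642 UMIs for spleen IGRP+. By group in the same order, a median cell held 3793 and 3869, 3800 and 4216.5, and 2590 and 2764.5 UMIs. Pairs of libraries shared at most 64 cell barcodes. The sorted identity was checked with markers: at 1000 UMIs per cell, Cd8a was found in 37.6% to 55.6% of cells of a library, and Cd4 in at most 0.0340%. Levels are given as CPM, the UMIs of a gene scaled to 1000000 UMIs of the library, which in summed counts mixes the share of cells that use a gene with the amount per cell.

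Dusp5, an ERK-specific nuclear phosphatase, was the most abundant of the 8 in each islet library, whereas Dusp2, a nuclear phosphatase first described in activated T cells, led in the spleen. Dusp5 was at 400 and 552 CPM in islet IGRP- cells, 267 and 507 CPM in islet IGRP+ cells, and 104 and 71.4 CPM in spleen IGRP+ cells in Rounds 1 and 2. The 4 islet values lay above the spleen values, and both islet groups were higher in Round 2 than in Round 1. Dusp2 was at 361 and 356 CPM in islet IGRP- cells, 195 and 218 CPM in islet IGRP+ cells, and 415 and 426 CPM in spleen IGRP+ cells. The lowest levels were those of islet cells that bound the tetramer. The other two groups did not overlap in CPM, but with the TMM scaling that the tests used the Round 2 spleen level (372) lay below the Round 1 islet IGRP- level (388).

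Dusp4, a nuclear phosphatase of ERK and JNK, had the opposite order to Dusp2. It was at 83.4 and 108 CPM in islet IGRP- cells, 124 and 213 CPM in islet IGRP+ cells, and 25.1 and 28.2 CPM in spleen IGRP+ cells. No islet library overlapped the spleen, and both islet IGRP+ libraries lay above both islet IGRP- libraries. Dusp10, which acts on JNK and p38, was highest in islet cells without tetramer binding, at 150 and 259 CPM, against 52.7 and 90.5 CPM in islet IGRP+ cells and 35.7 and 45.5 CPM in spleen IGRP+ cells. The groups did not overlap for Dusp10.

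Dusp1, the broadly induced nuclear phosphatase, did not separate the groups. Its levels were 171 and 250 CPM in islet IGRP- cells, 119 and 253 CPM in islet IGRP+ cells, and 211 and 190 CPM in spleen IGRP+ cells, and the islet IGRP+ values lay on either side of both spleen values. Dusp6, the cytoplasmic ERK phosphatase, was low throughout, at 13.3 and 16.0, 12.9 and 14.8, and 19.5 and 21.1 CPM in the same order of groups and rounds, with the spleen above the islets. Spry1 was at 6.45 and 16.3, 5.44 and 15.9, and 2.19 and 4.49 CPM, more abundant in Round 2 in each group. Spry2 was at 0.960 and 1.46, 1.19 and 3.26, and 2.29 and 1.74 CPM, and these levels rested on 7 to 59 UMIs per library.

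**Figure D1:**
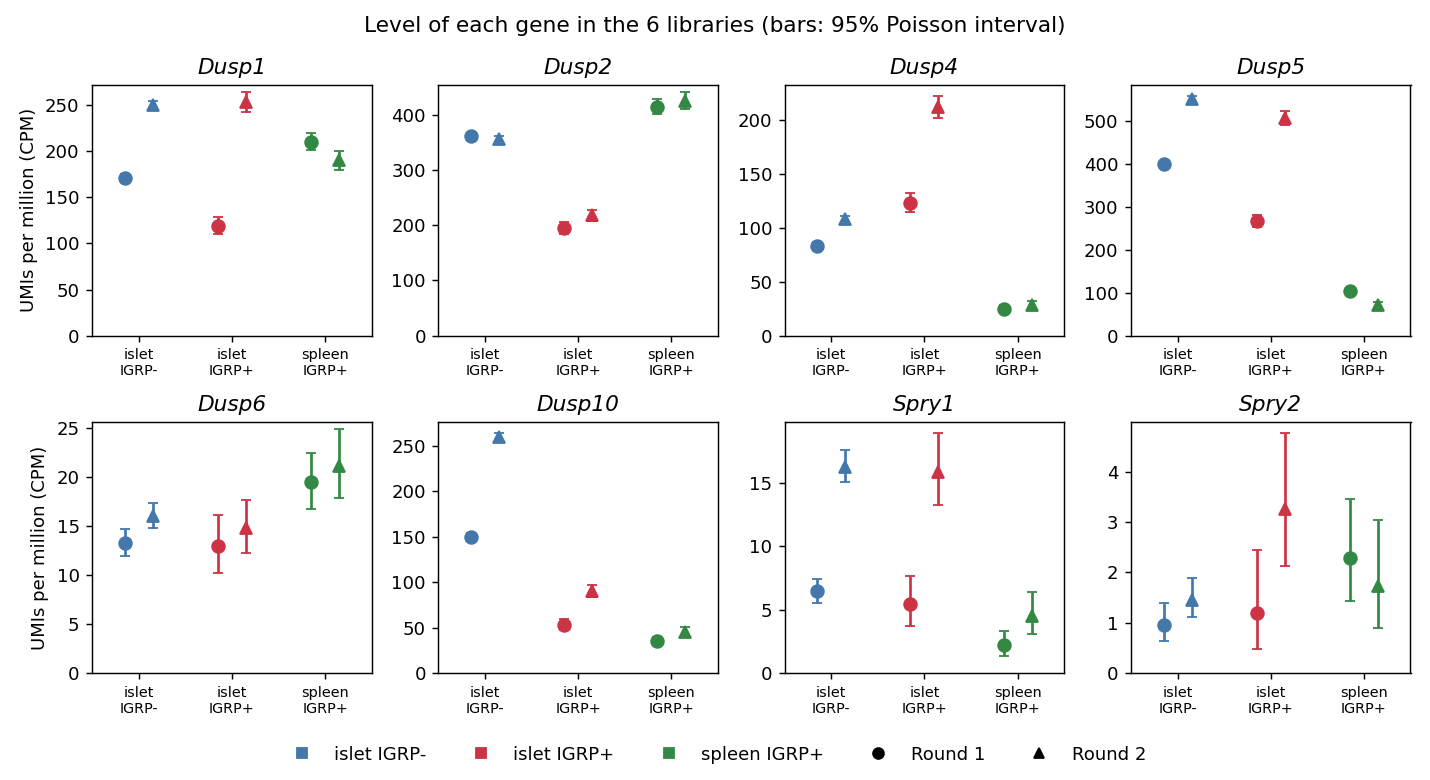
Level of each of the 8 genes (vertical axes, CPM, each starting at 0) in the 3 groups, with Round 1 as circles and Round 2 as triangles. Bars are 95% Poisson intervals, which cover counting error only. Dusp4 lay between 83.4 and 213 CPM in the islet libraries against 25.1 and 28.2 CPM in the spleen, whereas Dusp1 ranged from 119 to 253 CPM within the islet IGRP+ group.

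Ranked by mean level, the order within islet IGRP- cells was Dusp5 (476 ± 108 CPM, SD, n = 2), Dusp2 (359 ± 3.95), Dusp1 (210 ± 55.9) and Dusp10 (204 ± 77.7), followed by Dusp4 (95.9 ± 17.6). Dusp1 and Dusp10 did not differ there beyond the spread between rounds. In islet IGRP+ cells the order was Dusp5 (387 ± 170), Dusp2 (206 ± 16.3), Dusp1 (186 ± 94.5), Dusp4 (168 ± 62.8) and Dusp10 (71.6 ± 26.7), and the middle neighbours Dusp2, Dusp1 and Dusp4 lay within their spread. Spleen IGRP+ cells had Dusp2 (421 ± 7.54) well above Dusp1 (200 ± 14.5), then Dusp5 (87.8 ± 23.2), Dusp10 (40.6 ± 6.90) and Dusp4 (26.7 ± 2.22), with no overlap between neighbours. These orders are of UMIs from 5′ ends, of which each counts 1 molecule whatever the length of its transcript. Summed over the 8 genes, levels were 1186 and 1560 CPM in islet IGRP- cells, 777 and 1315 CPM in islet IGRP+ cells, and 815 and 789 CPM in the spleen, so that the Round 2 islet IGRP+ library lay above both spleen libraries. The Round 1 islet IGRP+ library lay below them in CPM but above them at 1000 UMIs per cell, at 885 against 853 and 821 CPM.

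Detection in single cells was compared after each cell was thinned to 1000 UMIs, which left out 391 of the 24117 cells as too shallow. Dusp5 was found in 28.4% and 35.7% of islet IGRP- cells, 22.2% and 38.5% of islet IGRP+ cells, and 9.99% and 7.04% of spleen IGRP+ cells in Rounds 1 and 2. Dusp2 was found in 27.2% and 25.3%, 18.3% and 19.7%, and 32.7% and 31.7%, Dusp4 in 5.97% and 7.80%, 11.8% and 18.5%, and 2.61% and 2.57%. Dusp10 was found in 13.1% and 20.5%, 5.26% and 8.75%, and 3.13% and 4.34% of cells, and Dusp1 in 14.8% and 20.8%, 12.1% and 24.3%, and 17.0% and 16.5%. The order of the groups was thus the same in shares of cells as in CPM for Dusp2, Dusp4 and Dusp10. Without thinning, 21.6% and 16.9% of spleen cells held a Dusp5 UMI against 58.8% and 75.3% of islet IGRP+ cells.

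As a guide to background, genes that CD8 T cells should lack were read in the same cells at 1000 UMIs. The pancreatic protease Prss2 was found in 0.0843% to 2.57% of cells of a library, insulin (Ins2) in at most 0.934%, and the myeloid gene Lyz2 and the B-cell gene Cd79a in at most 0.0643% each. In the 4 islet libraries, where Prss2 was found in 0.594% to 2.57% of cells, Dusp6 was found in 1.31% to 1.86%, Spry1 in 0.424% to 1.67% and Spry2 in at most 0.514%, so the islet shares of these 3 genes were not read as differences between cells. In the spleen, Dusp6 was found in 2.09% and 2.15% of cells, where Prss2, a gene of the pancreas, gives no background. Without thinning, 7 of 1204 islet IGRP+ cells of Round 1 had a Spry2 UMI. After thinning, cells with no UMI of any of the 8 genes made up 36.1% and 27.1% of islet IGRP- cells, 47.5% and 28.7% of islet IGRP+ cells, and 46.0% and 49.0% of spleen cells. Cells with UMIs of 3 or more of the genes made up 4.34% and 7.53%, 2.97% and 9.0%, and 1.3% and 1.47%.

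The effect of tetramer binding was asked within the islets, where both groups shared mice and isolation. With edgeR on UMIs summed per library and no term for the round, 0 of the 8 genes passed an adjusted p of 0.05 between islet IGRP+ and islet IGRP- cells, where 1.19% of the 11277 genes tested did, and 3 had an unadjusted p under 0.05, where 17.6% of all genes did. With the round as a block, 3 of 8 passed, where 30.5% of all genes did. Dusp10 was lower in islet IGRP+ cells by a log2 value of -1.53 ± 0.286 (SE, edgeR adjusted p = 0.0809, and 6.47e-06 with the block), which is 2.88-fold. Dusp2 was lower by -0.80 ± 0.176 (adjusted p = 0.109, and 0.000265 with the block), or 1.75-fold. Dusp4 was higher by 0.79 ± 0.217 (adjusted p = 0.162, and 0.000859 with the block), or 1.73-fold. DESeq2 without a block called the same 3 genes, where it called 5.09% of all genes, with adjusted p of 0.000186 for Dusp10, 0.00146 for Dusp2 and 0.0341 for Dusp4.

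Each of these differences had one direction in both rounds. Within Round 1 and Round 2, the log2 ratio of TMM-scaled levels in islet IGRP+ to islet IGRP- cells was -1.45 and -1.58 for Dusp10, -0.84 and -0.77 for Dusp2, and 0.62 and 0.91 for Dusp4. Dusp5 (-0.33 ± 0.352, adjusted p = 0.663), Dusp1 (-0.21 ± 0.325, adjusted p = 0.777), Dusp6 (-0.08 ± 0.168, adjusted p = 0.830), Spry1 (-0.10 ± 0.558, adjusted p = 0.943) and Spry2 (0.87 ± 0.498, adjusted p = 0.404) did not pass with or without the block in edgeR. With one library left out, Spry2 ranged from 0.10 to 1.32. The median log2 change was -0.16 over the 8 genes and -0.014 over all genes tested. The rounds differed in this comparison by more than the groups for Dusp1, with log2 ratios of Round 2 to Round 1, on the same TMM scale, of 0.42 in islet IGRP- cells, 0.83 in islet IGRP+ cells and -0.41 in the spleen.

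Tissue was asked among tetramer-binding cells. Between islet IGRP+ and spleen IGRP+ cells, 3 of 8 genes passed in edgeR without the round term, where 26.6% of all genes passed, and 6 of 8 with the block, where 55.1% did. Dusp4 was 6.62-fold higher in the islets (log2 2.73 ± 0.233, adjusted p = 0.00237), and Dusp5 was 4.50-fold higher (2.17 ± 0.368, adjusted p = 0.0112). Dusp2 was 1.92-fold lower in the islets (-0.94 ± 0.176, adjusted p = 0.0149). Dusp10 (0.90 ± 0.286, adjusted p = 0.0652, and 0.000264 with the block), Spry1 (1.79 ± 0.626, adjusted p = 0.0842, and 5.23e-05 with the block) and Dusp6 (-0.46 ± 0.170, adjusted p = 0.0965, and 0.0227 with the block) passed with the block but not without it. Dusp10 and Spry1 also passed in DESeq2 (adjusted p = 0.0171 and 0.0239), which called 5 of 8, where it called 29.5% of all genes, and Dusp6 passed in edgeR when no upper limit was set on genes per cell (adjusted p = 0.0300). Spry1 ranged from 0.98 to 2.26 with one library left out, the lowest without the Round 2 islet IGRP+ library. The median log2 change was 0.55 over the 8 genes and -0.032 over all genes. Dusp1 (-0.06 ± 0.326, adjusted p = 0.913) had a log2 ratio of TMM-scaled levels of -0.73 in Round 1 and 0.52 in Round 2. Without the Round 2 spleen library the calls of Dusp2 and Dusp5 were lost, with 1 of 8 genes left, where 7.6% of all genes passed, and the call of Dusp2 was also lost without either islet IGRP+ library or the other spleen library.

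Tetramer-negative islet cells differed from the spleen in the same direction for Dusp4 and Dusp5, and these values share the spleen libraries with the comparison above. In edgeR 3 of 8 passed, where 22.4% of all genes did: Dusp5 at 5.65-fold higher (log2 2.5 ± 0.372, adjusted p = 0.00996), Dusp10 at 5.37-fold higher (2.43 ± 0.295, adjusted p = 0.00639) and Dusp4 at 3.83-fold higher (1.94 ± 0.226, adjusted p = 0.00591). With the block, 5 of 8 passed, where 55.4% of all genes did, the others being Spry1 (adjusted p = 9.86e-06), which was higher in the islets, and Dusp6 (adjusted p = 0.0289), which was lower. DESeq2 without a block called 4 of 8, where it called 26.3% of all genes, with Spry1 as the further gene (adjusted p = 0.0171). Dusp2 differed by -0.13 ± 0.175 (adjusted p = 0.624), where the 2 islet IGRP- libraries were at 361 and 356 CPM and the spleen at 415 and 426 CPM. Spry1, at 1.89 here, ranged from 1.17 to 2.34 with one library left out, the lowest without the Round 2 islet IGRP- library. The median log2 change was 1.02 over the 8 genes and 0.021 over all genes. Without the Round 2 spleen library 0 of 8 genes passed, where 3.25% of all genes did, and without the Round 1 spleen library 1 of 8 did, where 3.75% of all genes did.

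**Figure D2:**
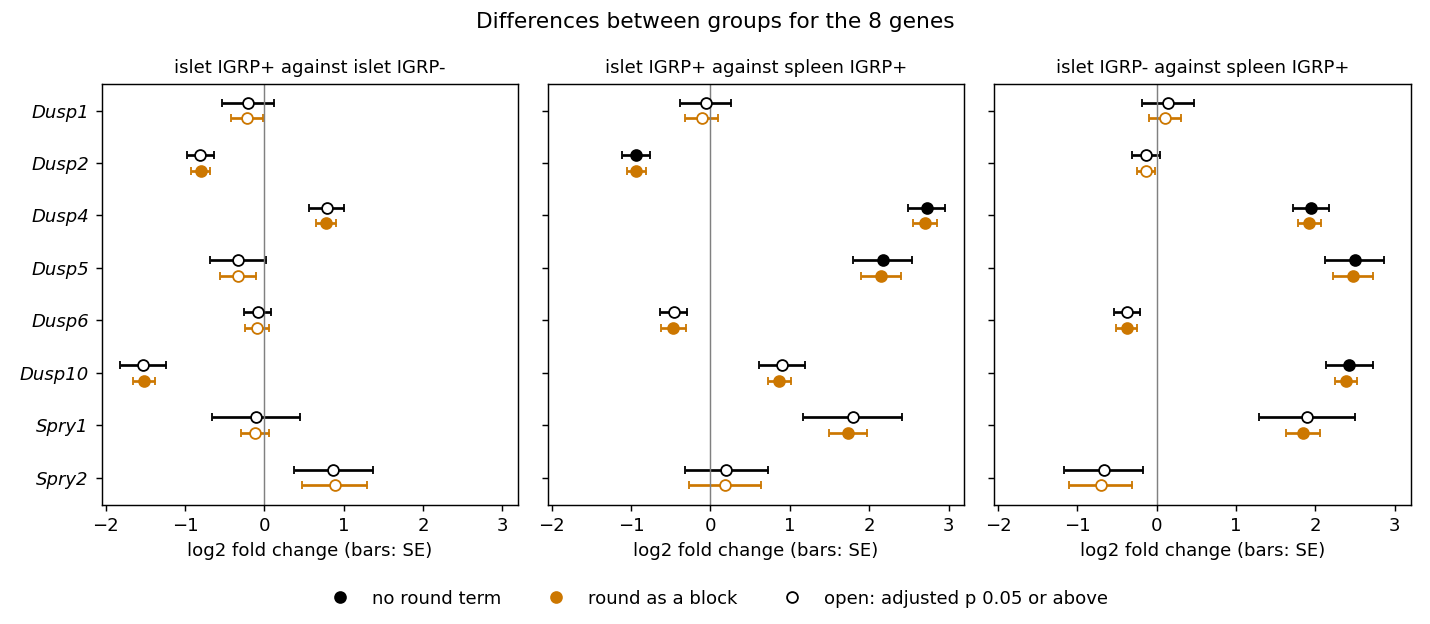
Log2 fold change of each gene (rows) in the 3 comparisons (panels), from edgeR without a round term (black) and with the round as a block (orange). Bars are standard errors and filled points have an adjusted p under 0.05. Dusp4 was at 2.73 and 1.94 in the comparisons with the spleen and at 0.79 within the islets, and Dusp10 was at -1.53 within the islets.

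Exocrine transcripts were more abundant in the islets than in the spleen, and cells rich in them were not removed. The 12 exocrine genes summed to 144 and 486 CPM in islet IGRP- cells, 63.3 and 179 CPM in islet IGRP+ cells, and 5.62 and 6.51 CPM in the spleen, where 10 of the 12 were at 0 in each library. Of these, 11 of 12 passed as higher in islet IGRP+ than in spleen cells in edgeR, where 26.6% of all genes passed. The 8 islet endocrine genes summed to 137 and 10.9, 5.61 and 13.9, and 0.104 and 0.145 CPM, with Ppy at 133 CPM in the Round 1 islet IGRP- library. The 6 B-cell genes summed to 88.8 and 61.5, 75.3 and 84.7, and 127 and 122 CPM, mostly Ighm and Igkc. The 9 myeloid genes summed to 168 and 181, 202 and 226, and 190 and 205 CPM, of which Cst3 made up 146 to 194 CPM. The 5 natural killer genes summed to 120 and 128, 149 and 218, and 184 and 283 CPM, of which Eomes, which CD8 T cells also express, made up 114 to 281 CPM. The 6 genes of stroma and endothelium, led by Pecam1, summed to 21.3 and 21.8, 6.29 and 5.51, and 15.7 and 14.0 CPM. The 4 CD4 T-cell genes and the 4 red-cell genes summed to at most 3.43 CPM per list and library. The part of other cells in the levels of the 8 genes was not tested, and the 8 CD8 T-cell genes summed to 5312 to 7218 CPM per library.

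The 12 heat shock and handling genes summed to 6138 and 8267 CPM in islet IGRP- cells, 6773 and 7671 CPM in islet IGRP+ cells, and 5954 and 5671 CPM in the spleen. In edgeR without the block, 4 rose and 1 fell in islet IGRP+ against spleen cells, where 26.6% of all genes passed. Within the islets 0 of 12 passed, where 1.19% of all genes did, and 2 fell with the block, where 30.5% did. The transcription factor Atf3 was at 4.25 and 6.14 CPM in islet IGRP+ and 0.624 and 0.579 CPM in spleen cells (log2 3.16 ± 0.325, adjusted p = 0.00333), whereas the chaperone Hspa1b was at 9.69 and 39.1 CPM against 155 and 84.4 CPM (-2.29 ± 0.656, adjusted p = 0.0492). Hspd1, a mitochondrial chaperone, was higher in islet IGRP+ cells by 1.54 ± 0.174 (adjusted p = 0.00425), and the cytokine-signal inhibitor Socs3 by 0.99 ± 0.246 (adjusted p = 0.0332). The abundant chaperones Hsp90ab1, Hspa8 and Hsp90aa1 had changes of 0.67, 0.24 and 0.07, with adjusted p of 0.159, 0.467 and 0.901, and with the block Hsp90ab1 passed (adjusted p = 0.00434). Their part in the levels of the phosphatases was not tested.

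Among the 14 other MAP kinase phosphatases and atypical dual-specificity phosphatases, 11 passed the filter on low counts. Within the islets 2 rose and 3 fell with the block, where 30.5% of all genes passed. Without the block 1 rose in tetramer-binding cells in edgeR, where 1.19% of all genes passed. That gene was Dusp14, an atypical phosphatase, at 16.8 and 18.4 CPM in islet IGRP- cells, 35.0 and 44.9 CPM in islet IGRP+ cells, and 4.79 and 6.37 CPM in the spleen (log2 1.17 ± 0.156 within the islets, adjusted p = 0.0397, and 2.94 ± 0.174 against the spleen, adjusted p = 0.00132). The call of Dusp14 within the islets was lost without either islet IGRP+ library. The JNK and p38 phosphatase Dusp16 followed Dusp10 in its order, at 7.65 and 7.51, 3.06 and 3.88, and 0.208 and 0.579 CPM. Its log2 change was 3.29 ± 0.422 in islet IGRP+ against spleen cells (adjusted p = 0.00546) and -1.13 ± 0.300 within the islets (adjusted p = 0.153, and 0.00505 with the block). Dusp7, a cytoplasmic ERK phosphatase like Dusp6, was lower in islet IGRP+ than in spleen cells by -2.92 ± 0.572 (adjusted p = 0.0167), at 0.340 and 0.752 against 2.71 and 6.80 CPM. Dusp28 was also lower (-1.11 ± 0.309, adjusted p = 0.0450), so that 2 rose and 2 fell, where 26.6% of all genes passed. In islet IGRP- against spleen cells 3 rose and 1 fell, where 22.4% of all genes passed. Dusp8 was higher there (3.05 ± 0.764, adjusted p = 0.0382) and Dusp19 lower (-1.01 ± 0.258, adjusted p = 0.0406). Dusp11 and Styx, with the highest levels of the list beside Dusp14, had adjusted p of 0.515 to 0.988 in each comparison without the block.

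Of the other 5 Sprouty and Spred genes, 2 passed the filter, and 3, among them Spry4 at no more than 0.290 CPM in any library, did not. The Ras-ERK inhibitors Spred1 and Spred2 were both higher in islet IGRP- than in spleen cells (log2 1.77 ± 0.382, adjusted p = 0.0262, and 0.90 ± 0.186, adjusted p = 0.0233), and Spred1 was higher in islet IGRP+ than in spleen cells (2.14 ± 0.400, adjusted p = 0.0147). Spred2 had 17.3 and 17.3 CPM in islet IGRP- cells and 11.2 and 11.4 CPM in islet IGRP+ cells (-0.62 ± 0.187, adjusted p = 0.190, and 0.00699 with the block). Neither passed within the islets without the block.

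Of the 19 kinases, adaptors and GTPase regulators of the Ras-ERK cascade, 0 passed within the islets, where 1.19% of all genes did. With the block 1 rose and 4 fell, where 30.5% of all genes passed. Against the spleen, 4 rose and 2 fell in islet IGRP+ cells, where 26.6% of all genes passed. Likewise 4 rose and 2 fell in islet IGRP- cells, where 22.4% of all genes passed. The Ras GTPase-activating protein Nf1 was higher in islet IGRP+ cells (log2 1.74 ± 0.253, adjusted p = 0.00765). Rasa3, another Ras GTPase-activating protein, was lower (-1.99 ± 0.259, adjusted p = 0.00570), as was Rasgrp1 (-0.91 ± 0.135, adjusted p = 0.00784), the exchange factor that couples the T-cell receptor to Ras. Map2k2 (0.13 ± 0.170, adjusted p = 0.601) and Grb2 (0.56 ± 0.494, adjusted p = 0.438, and 0.00171 with the block) were among the most abundant of the list.

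Of the 14 genes of the JNK and p38 cascade, 12 were tested. Within the islets 0 passed, where 1.19% of all genes did, and 1 rose and 5 fell with the block, where 30.5% did. Against the spleen, 2 rose and 1 fell in islet IGRP+ cells, where 26.6% of all genes passed. Map2k3, which activates p38, was at 119 and 140 CPM in islet IGRP+ cells and 34.5 and 46.2 CPM in the spleen (log2 1.79 ± 0.162, adjusted p = 0.00274), whereas Map2k6, which also activates p38, was at 5.95 and 3.26 against 15.1 and 18.8 CPM (-1.77 ± 0.390, adjusted p = 0.0233). The p38-activated kinase Mapkapk3 was higher by 1.10 ± 0.183 (adjusted p = 0.0105). In islet IGRP- against spleen cells, 3 rose and 1 fell, where 22.4% of all genes passed. With the block 10 rose and 1 fell, where 55.4% did. Map3k1 (1.15 ± 0.535, adjusted p = 0.163, and 6.45e-06 with the block) and the p38 kinase Mapk14 (0.49 ± 0.304, adjusted p = 0.280, and 0.00793 with the block) passed in islet IGRP+ against spleen cells with the block alone.

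Of the 20 immediate early and ERK output genes, 19 were tested, with 0 calls within the islets and a median log2 change of -0.38 there. With the block 2 rose and 5 fell within the islets, where 30.5% of all genes passed, against 1.19% without it. Against the spleen, 5 rose and 4 fell in islet IGRP+ cells, where 26.6% of all genes passed. The orphan nuclear receptor Nr4a3 was at 116 and 251 CPM in islet IGRP+ and 19.4 and 13.0 CPM in spleen cells (log2 3.52 ± 0.412, adjusted p = 0.00454), and the AP-1 subunit Fosl2 was at 96.8 and 192 against 12.1 and 10.7 CPM (3.71 ± 0.343, adjusted p = 0.00287). Jun, another AP-1 subunit, was lower in islet IGRP+ cells at 89.8 and 146 against 536 and 425 CPM (-1.98 ± 0.280, adjusted p = 0.00717), as were Myc (-1.73 ± 0.194, adjusted p = 0.00422) and Ier2 (-0.87 ± 0.236, adjusted p = 0.0420). In islet IGRP- against spleen cells 5 rose and 3 fell, where 22.4% of all genes passed, with Ier3 lower by -2.48 ± 0.466 (adjusted p = 0.0182). Junb was at 1075 and 1644 CPM in islet IGRP+ and 1209 and 1115 CPM in spleen cells (0.29 ± 0.279, adjusted p = 0.480), and Jund differed between rounds in each group, at 364 and 1602 CPM in islet IGRP+ cells. Summed over the 20 genes, levels were 4316 and 6335, 3058 and 5651, and 4062 and 3992 CPM, with both islet groups higher in Round 2, as were 7 of the 8 genes in CPM, all but Dusp2, and 6 after TMM scaling, which left out Dusp6 too. Deviations between rounds correlated over 5618 genes at a Pearson r of 0.854 between the islet groups. The share of all genes higher in Round 2 is not given here.

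The cells that carried an Nr4a1 UMI, a transcript induced by T-cell receptor signaling and by handling, were compared with the other cells of their library at 1000 UMIs per cell. Nr4a1 was found in 11.7% and 16.4% of islet IGRP- cells, 10.5% and 18.8% of islet IGRP+ cells, and 4.32% and 1.52% of spleen cells. Dusp1 was 2.36 and 1.53 times as high in the Nr4a1 UMI cells of islet IGRP- libraries, and 2.68 and 1.71 times as high in those of islet IGRP+ libraries, against 0.97 and 0.69 times in the spleen, where only 149 and 36 cells had the UMI. Dusp2 was 1.72 and 1.61 times as high in islet IGRP- cells and 1.49 and 1.65 times as high in islet IGRP+ cells, and Dusp5 between 1.28 and 1.47 times in the 4 islet libraries. Dusp4 was 1.51 and 1.40 times as high in islet IGRP- cells but 1.07 and 1.02 times in islet IGRP+ cells. Dusp10 was between 0.71 and 1.06 times the level of the other cells in the islets. Cells of 1 library are not replicates and these ratios were not tested.

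**Figure D3:**
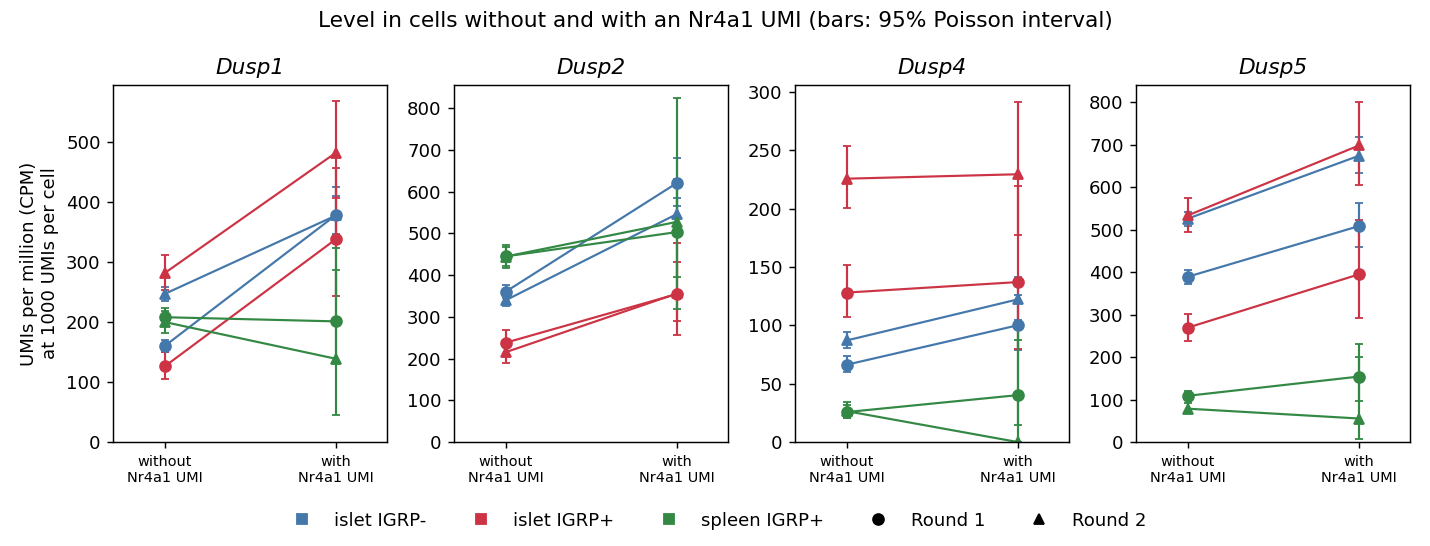
Level of Dusp1, Dusp2, Dusp4 and Dusp5 (vertical axes, CPM at 1000 UMIs per cell) in cells without and with an Nr4a1 UMI, with one line per library. Colours give the group, circles and triangles the round, and bars 95% Poisson intervals. In the 4 islet libraries Dusp1 was between 1.53 and 2.68 times as high in cells with the UMI, whereas the spleen intervals were wide because 149 and 36 cells had it.

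Cells in cycle were taken as those with a Top2a or Mki67 UMI, of which the islet IGRP+ libraries had 97 and 96 after thinning. In these cells Dusp1 was at 0.46 and 0.44 times the level of the other islet IGRP+ cells, from 7 and 14 Dusp1 UMIs. In islet IGRP- cells it was at 0.73 and 0.72 times. The 66 and 73 such cells of the spleen were at 1.24 and 1.10 times, from 17 and 16 Dusp1 UMIs. Dusp10 was at 0.25 and 0.44 times in islet IGRP- cells, and at 0.73 and 0.59 times in islet IGRP+ cells, from 4 and 6 UMIs in the latter. The cycling spleen cells held 0 and 5 Dusp10 UMIs, at 1.59 times in Round 2. Dusp4 was higher in the cycling islet IGRP- cells, at 1.75 and 1.38 times, and was at 0.87 and 1.16 times in islet IGRP+ cells. Dusp5 was at 1.35 and 1.34 times in islet IGRP- cells and at 0.87 and 0.65 times in islet IGRP+ cells. The islet IGRP+ values rest on 24 and 36 Dusp5 UMIs in cycling cells. In the spleen Dusp5 was at 0.82 and 1.98 times, from 6 and 11 UMIs. These ratios were not tested.

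Pdcd1 encodes PD-1, an inhibitory receptor of T cells that have met antigen, and its UMIs were found in 37.3% and 33.2% of islet IGRP- cells, 70.1% and 73.1% of islet IGRP+ cells, and 10.4% and 11.9% of spleen IGRP+ cells. A cell without a UMI may still express the gene, and cells with it were deeper, with medians of 4390 and 4474 UMIs against 3616 and 3692 in islet IGRP- cells, and of 4063 and 4581.5 against 2986 and 3617 in islet IGRP+ cells. Dusp4 in islet IGRP- cells was at 129 and 177 CPM with and 47.5 and 65.0 CPM without a Pdcd1 UMI, whereas in islet IGRP+ cells it was at 121 and 204 CPM with and 132 and 242 CPM without. The lowest islet values of Dusp4 were those of tetramer-negative cells that lacked the UMI, and in the spleen Dusp4 was at 31.4 and 42.9 CPM with and 24.3 and 26.1 CPM without. Dusp10 was lower with the UMI in islet IGRP- cells, at 75.0 and 121 CPM against 208 and 346 CPM, and was at 55.5 and 92.1 CPM with and 44.1 and 84.8 CPM without in islet IGRP+ cells.

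The effect of tetramer binding was therefore fitted apart in the 2 classes of islet cells, and the difference of the effects was tested in one model with a term for each library. In cells without a Pdcd1 UMI, Dusp10 was 4.48-fold lower (log2 -2.16 ± 0.340) and Dusp4 was 3.17-fold higher (1.66 ± 0.282) in islet IGRP+ than in islet IGRP- cells. Adjusted p in edgeR was 0.0669 and 0.0740, and 5.19e-31 and 1.36e-22 with the round as a block. The blocked fit had few libraries and leaned on a spread estimate shared over genes, so these last values do not measure the spread between pools. In cells with the UMI the log2 changes of Dusp10 and Dusp4 were -0.34 ± 0.282 and 0.14 ± 0.252 (adjusted p = 0.809 and 0.896, and 0.0655 and 0.533 with the block). Without the block, 0 of 8 genes passed in either class, where 0.357% of 10910 genes passed without and 0% of 10956 with the UMI, and 3 and 1 of the 8 had an unadjusted p under 0.05, where 18% and 5.8% of genes did. With the block, 3 of 8 passed in cells without the UMI, where 25% of genes did, and 2 of 8, Dusp2 (log2 -0.75) and Dusp5 (-0.57), in cells with it, where 16.1% did.

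The difference between islet IGRP+ and islet IGRP- cells was not the same in the 2 classes for 3 of the 8 genes, where 9.57% of 11468 genes passed. Each class can hold several states of CD8 T cells, and the part of their mix in this difference was not tested. The test of the difference also had few libraries from which to estimate spread, so its very small p-values do not measure the spread between pools. The log2 effect in cells with the UMI minus that in cells without was 1.82 ± 0.113 for Dusp10 and -1.52 ± 0.0932 for Dusp4 (adjusted p = 1.52e-10 for each), and -0.32 ± 0.0695 for Dusp5 (adjusted p = 0.00281). The Dusp5 call was lost after thinning to 1000 UMIs (adjusted p = 0.229) and without the Round 2 islet IGRP+ library (adjusted p = 0.0998). Dusp2, which was lower in islet IGRP+ cells in both classes (-0.76 ± 0.191 with and -0.998 ± 0.231 without), had a difference of 0.28 ± 0.0930 (adjusted p = 0.0670). With one library left out the Dusp2 difference ranged from 0.091 to 0.45, and whether it passed depended on the library. Within islet IGRP+ libraries the level of Dusp2 was 198 and 232 CPM with and 185 and 168 CPM without the UMI, below the 337 to 392 CPM of both classes of islet IGRP- cells.

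**Figure D4:**
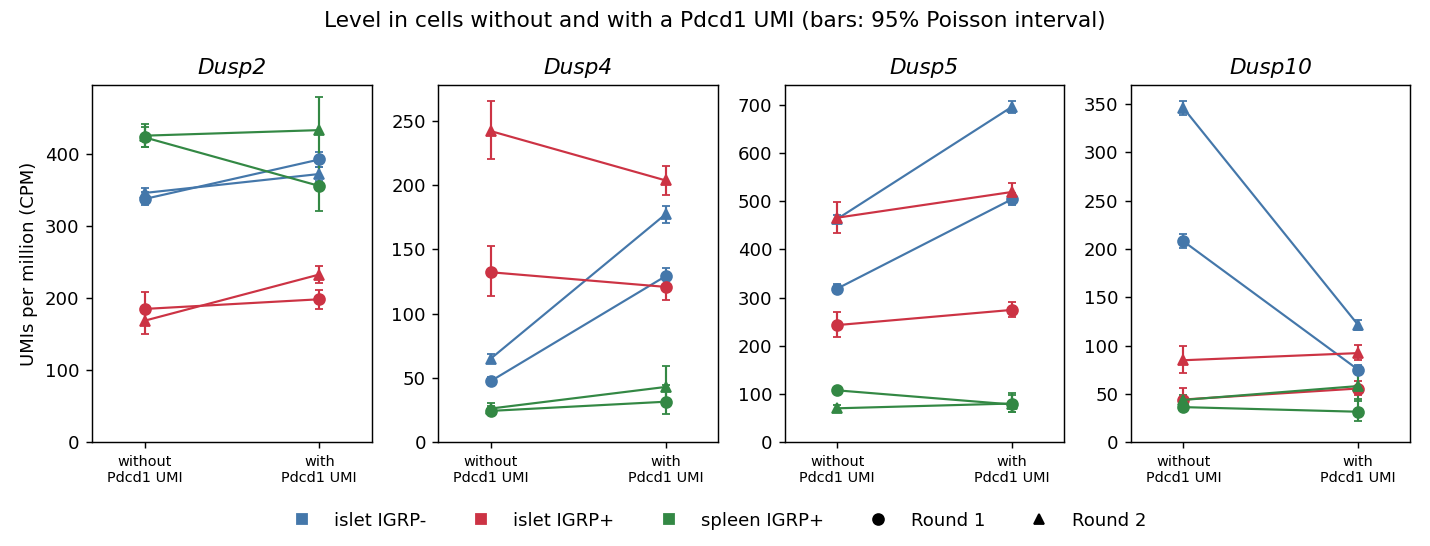
Level of Dusp2, Dusp4, Dusp5 and Dusp10 (vertical axes, CPM) in cells without and with a Pdcd1 UMI, with one line per library, colours for groups and symbols for rounds. Bars are 95% Poisson intervals. Dusp10 was at 208 and 346 CPM in islet IGRP- cells without the UMI and at 121 CPM or less in the other islet classes, and Dusp4 was at 47.5 and 65.0 CPM in the same cells and at 121 CPM or more in the other islet classes.

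Paired T-cell receptor sequences allowed cells of one clone to be compared in the islets and the spleen, which holds the receptor fixed. Clones with at least 10 IGRP+ cells in each tissue numbered 14 in Round 1 and 19 in Round 2. Dusp4 was higher in the islet cells of 14 of 14 and 19 of 19 clones, with median levels of 141 against 28.2 CPM and 198 against 29.2 CPM. Dusp5 was higher in the islet cells of 13 of 14 and 19 of 19 clones, with medians of 265 against 115 CPM and 525 against 67.1 CPM. Dusp2 was higher in the spleen cells of 14 of 14 and 18 of 19 clones, with medians of 391 against 168 CPM and 457 against 204 CPM.

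Dusp1 did not keep a direction, being higher in the spleen cells of 13 of 14 clones in Round 1 and in the islet cells of 13 of 19 clones in Round 2. Dusp10 was higher in the islet cells of 8 of 14 and 18 of 19 clones, and Spry1 in those of 7 of 14 and 15 of 19, with 3 and 3 clones equal. Dusp6 was higher in the spleen cells of 11 clones in each round. Both genes were low in clones, so these directions rest on low counts. Islet against spleen medians were 2.23 against 0 and 12.4 against 0 CPM for Spry1 in Rounds 1 and 2. For Dusp6 they were 11.9 against 16.2 and 10.7 against 20.3 CPM. Clones of one round share the libraries and are not replicates, so no test was made over them. When both tissues were restricted to cells of clones found in both tissues of the round, 3 of the 7 genes tested passed in edgeR, with 2 higher and 1 lower in the islets, where 23.3% of all genes passed.

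**Figure D5:**
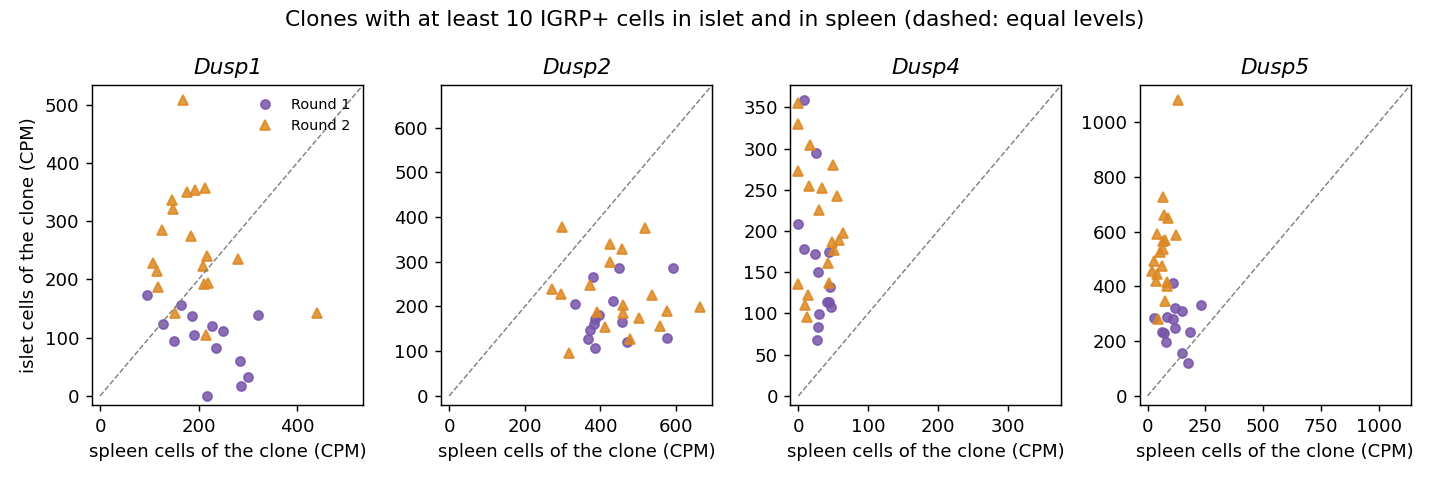
Level of Dusp1, Dusp2, Dusp4 and Dusp5 in the islet cells (vertical axes) against the spleen cells (horizontal axes) of each clone with at least 10 IGRP+ cells in both tissues, in CPM, with 14 clones of Round 1 as circles and 19 of Round 2 as triangles. Points above the dashed line were higher in the islets. For Dusp4, 14 of 14 and 19 of 19 clones lay above the line, whereas for Dusp1 the 2 rounds lay mostly on opposite sides.

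The genes with the pattern most like each of the 8 were found by Pearson r of log2(CPM + 1) over the 6 libraries, among genes with a mean of at least 20 CPM. Because the libraries fall into groups and share rounds, r describes the order of groups and the differences between rounds, and nothing finer. Dusp1 did not separate the groups, so its matches follow the rounds as well. The nearest genes were Il7r (0.9996), Pde2a and Stim1 for Dusp2, and Arl13b (0.996) and Havcr2 were among the nearest for Dusp4. Il7r was at 187 and 192 CPM in islet IGRP- cells, 9.86 and 19.0 CPM in islet IGRP+ cells, and 374 and 427 CPM in the spleen, and Havcr2, which encodes the inhibitory receptor TIM-3, at 20.3 and 28.3, 49.7 and 90.5, and 0.937 and 1.16 CPM. For Dusp5 they were Tfb2m (0.996), Nr4a3 and Ndel1, and for Dusp10 they were the lymph node homing receptor Ccr7 (0.998), Osbpl9 and Chd7. Ccr7 was at 467 and 943, 153 and 315, and 108 and 135 CPM. Dusp1 was nearest to Gpr183 (0.961), Shc1 and Emp1, Dusp6 to Xrn2 (0.996), Tmc8 and Cbr1, Spry1 to Wdr48 (0.995), Uhrf2 and Etv6, and Spry2 to Rab7 (0.970), Fasl and Rpusd4.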

How the data were processed

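Single-cell RNA-seq and T-cell receptor libraries of 3 groups in 2 rounds were used. Per the labels and the file headers, the authors made the deposited raw UMI counts with Cell Ranger (5.0.1 in the headers) from 10x 5′ libraries against mm10, without normalization and with each library apart. The contig files, deposited by the authors, hold UMI and read counts per contig and gave the clones, taken as cells that share both the alpha and the beta CDR3 nucleotide sequences and carry 1 of each. Cells with mitochondrial UMIs under 5% and with 200 to 3500 (islet) or 200 to 2000 (spleen) genes were kept, 24117 of 26818. No doublet caller was run, and ambient RNA was not removed.

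UMIs were summed per library and tested in edgeR 4.0.16 (R 4.3.3; TMM, filterByExpr, quasi-likelihood, all 6 libraries in 1 fit, no round term), with Benjamini-Hochberg adjustment over all genes tested. All 8 genes passed the filter. SE is the log2 change over the root of the F statistic. Shares of cells used cells thinned to 1000 UMIs (also 500 and 2000), with exact 95% intervals. Depth sets the precision: 3 UMIs were 0.0741 to 0.510 CPM per library, and intervals cover counting error only. The 6 libraries came from 2 pools of mice, 1 per round, and the rounds also differed in sequencing kit and read length. P-values without the block measure only the spread between these rounds. Fits on the 4 islet libraries, with the block or for the difference between Pdcd1 classes, had few libraries from which to estimate spread. They leaned on an estimate shared over genes, so very small p-values there do not measure the spread between pools. Rounds pair the libraries by origin, since the groups of a round came from the same mice, and deviations between rounds correlated across 5618 genes (Pearson r of 0.854 for the islet groups, 0.874 and 0.815 with the spleen). Values with the round as a block are therefore given where they change a call of the 8 genes between whole groups, and for some other named genes. Further named genes, among them Rasa3, Socs3 and Ier3 within the islets, also passed in edgeR only with the block.

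Alternatives were the block, DESeq2 1.42.0 and its size factors, no filter, other cell sets, thinning and leaving out each library. The tests were run on simulated counts of the 6 libraries. All 8 genes are named, and of each pathway list the 3 most abundant genes and, per comparison, the 2 called genes with the largest change in each direction. Some genes that this rule or the likeness rule would name, and 1 marker, are not reported here. The genes and the lists were chosen with earlier results of these data known. Figures used Python 3.11.15 and matplotlib 3.10.9.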

Additional observations from a re-analysis of the deposited data

Results flagged for a closer look

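The difference between islet IGRP+ and islet IGRP- cells was not the same in cells with and without a Pdcd1 UMI, by the test of the difference itself, for Dusp4 (log2 difference -1.52, adjusted p = 1.52e-10), Dusp5 (-0.32, adjusted p = 0.00281) and Dusp10 (1.82, adjusted p = 1.52e-10) in edgeR, where 9.57% of 11468 genes passed. After each cell was thinned to 1000 UMIs and Pdcd1 read again, an alternative chosen after seeing the data, the differences were -1.09 for Dusp4, 2.25 for Dusp10 and -0.25 for Dusp5, and the last no longer passed (adjusted p = 0.229). Dusp5 was also lost without the Round 2 islet IGRP+ library (-0.30). With each of the 4 islet libraries left out in turn, the difference ranged from -1.55 to -1.43 for Dusp4 and from 1.76 to 1.97 for Dusp10. Such fits leave 1 library in a group, so they cannot show whether a call holds across pools. The UMI was found in 70.1% and 73.1% of islet IGRP+ cells and in 37.3% and 33.2% of islet IGRP- cells, and the part of the mix of cell states within each class was not tested.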

How the results depend on the processing

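Without a term for the round, edgeR called 134 genes and 0 of the 8 in islet IGRP+ against islet IGRP- cells. DESeq2 called 574 and 3, edgeR with no filter on low counts 711 and 1, and with the replicate block 3442 and 3. The number of genes was 24 with only the 4 libraries, 89 in cells with a productive contig and 82 after thinning to 1000 UMIs, and 0 to 30 with one library left out. For islet IGRP+ against spleen cells, 3004 genes and 3 of the 8 were called, against 6215 and 6 with the block. DESeq2 called 3322 genes and 5 of the 8, no filter 3564 and 5, thinning 1715 and 4 of the 7 tested, and leaving out one library 892 to 2050 genes and 1 to 3 of the 8. For islet IGRP- against spleen cells, 2530 genes and 3 of the 8 became 6251 and 5 with the block, and 382 to 2547 and 0 to 3 with one library left out.

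In cells with a Pdcd1 UMI, 0 genes were called (635 at an unadjusted p under 0.05), 182 with no filter, 1766 and 2 of the 8 with the block, and 1 to 29 with one library left out. In cells without it, 39 genes and 0 of the 8 were called, 1153 and 3 with no filter, 2728 and 3 with the block, and 20 to 460 and 0 to 2 with one library left out. The test of the difference called 1097 genes, 398 after thinning, and 649 to 1106 genes and 2 to 4 of the 8 with one library left out.

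Of 529 log2 values of the 8 genes under alternatives, 28 reversed, of which 0 passed. After thinning, Dusp6 was at 0.15 and Spry1 at 0.0021 within the islets, and Dusp1 at 0.23 in islet IGRP+ against spleen cells. With one library left out, Dusp1 ranged from -0.68 to 0.16 and Spry1 from -0.92 to 0.62 within the islets, Dusp1 from -0.54 to 0.29 and Spry2 from -0.56 to 0.62 in islet IGRP+ against spleen cells, and Dusp1 from -0.073 to 0.34 in islet IGRP- against spleen cells. In cells with a Pdcd1 UMI, Dusp1 ranged from -0.62 to 0.13, Dusp4 from -0.14 to 0.38, Spry1 from -1.14 to 0.44 and Spry2 from -0.17 to 0.93. In cells without it, Dusp1 ranged from -0.93 to 0.27, Dusp5 from -0.64 to 0.088, Spry1 from -1.85 to 0.81 and Spry2 from -0.23 to 1.52. The difference between these classes ranged from -0.13 to 0.30 for Dusp1, -0.89 to 0.68 for Spry1 and -0.81 to 0.063 for Spry2. A lone library left in a group was assumed to vary like the others. The cause of these changes was not tested. Spry1, Spry2 and Dusp6 had the lowest levels of the 8 genes, and the part of depth was not tested.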
